A study of Mus musculus with 44 samples.

Results

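Solute carriers are the membrane proteins that move ions, amino acids, sugars, metals, vitamins and metabolites across the plasma membrane and the membranes of vesicles, mitochondria and lysosomes. In the brain they clear transmitters from the synapse, fill synaptic vesicles, set the chloride gradient on which inhibition rests, and feed neurons and glia. Many of them spend the sodium gradient that the sodium pump builds, and others run on protons or on exchange. The features described here are those whose base name (the name in the table without its ending gs, or g-s and a number) begins with SLC and a digit, without SLC1A2. They number 213 features of 9554 (2.23%) and 195 base names in 43 families. Families grouped here as sodium-coupled (SLC1, 5, 6, 8, 9, 12, 13, 20, 34 and 38) hold 56 features of 49 base names, and the other families hold 157 features of 146 base names. By name, 207 features met a current mouse symbol in the RefSeq gene table, 3 a synonym (SLC24A6, SLC6A20 and SLC9A10, now Slc8b1, Slc6a20b and Slc9c1) and 3 neither (SLC2A14, SLC5A4 and SLC7A5P1), which keep their feature name and are tied to no gene here. The features SLC9A3R1 and SLC9A3R2 (3 in all) carry a transporter's name but stand for scaffold proteins that bind one. Slc17a7, Slc18a3, Slc4a4, Slc4a5, Slc6a3, Slc6a4, Slc6a8 and Slc2a3 were not analysed here.

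The study asked how gene expression in the mouse brain changes when an appetite for salt is raised and after it is gratified. Adult male C57/Bl6 mice were left untreated or received ACTH, the pituitary hormone that drives the adrenal cortex, or furosemide, a loop diuretic that makes the kidney lose sodium; a further group for each treatment was gratified. In that order (control, ACTH, ACTH gratified, furosemide, furosemide gratified) the hypothalamus had 4, 5, 6, 4 and 4 arrays and the whole brain without hypothalamus, called the rest of the brain, 4, 4, 5, 4 and 4. The sources used here give no dose, no time and no form of gratification. Each of the 44 two-colour arrays compared Cy5-labelled tissue RNA with Cy3-labelled universal mouse reference RNA, and every value below is a log2 ratio of tissue over reference, or a difference between such ratios in log2 units with its standard error (SE). A feature was said to be higher, lower, risen or fallen where limma's moderated test, adjusted by Benjamini-Hochberg over all 9554 features, gave a p under 0.05. Counts at an unadjusted p under 0.05 stand without the share of all features at that threshold. They are not read as a trait of solute carriers. Nothing in the labels ties an array to an animal, so a p-value speaks only of the spread among the arrays.

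Several facts of the arrays touch all results. In the controls 8 of 8 hypothalamus marker features were higher in hypothalamus and 4 of 6 cortex marker features were lower. One array went against its label. The array labelled hypothalamus ACTH gratified replicate 6 had a mean hypothalamus marker level of 0.40 and a cortex marker level of 1.17, where the other 5 arrays of its group had 1.40 to 2.05 and 0.04 to 0.56, and the arrays of the rest of the brain had hypothalamus marker levels of 0.37 to 0.78. Counts of all called solute carriers that rest on it, and some single values, are given with and without it. Other values and ranges include it. Some values equal another feature's value on the same array exactly; such tied values made up 20.2 to 37.6% of the solute carrier values on the 20 ACTH and ACTH gratified arrays and 2.82 to 18.3% on the other arrays. A feature that was tied on over 0.5 of either group's arrays is named without a size. The ACTH and ACTH gratified arrays also form a number series of their own in the sample descriptions, which no control array shares, so ACTH and that series cannot be told apart. A different array, replicate 4 of the hypothalamus ACTH gratified group, had the lowest mean correlation with its group (0.770, against up to 0.975). In bulk tissue, fewer cells of a type and less RNA per cell cannot be told apart.

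Between the tissues, the zinc and transmitter carriers of synaptic vesicles differed most. In the controls, 5 of 213 solute carrier features differed (3 higher and 2 lower in hypothalamus), beside 2.82% of all features (1.07% higher and 1.75% lower). Slc30a3, the carrier that loads zinc into the vesicles of forebrain glutamate neurons, was lower in hypothalamus, and Slc17a6, the vesicular glutamate carrier of subcortical neurons, was higher. Slc30a3 read 0.55, 0.53, 0.38 and 0.82 on the 4 hypothalamus control arrays and 1.59, 1.57, 1.57 and 1.79 on the 4 control arrays of the rest of the brain. The groups did not overlap, and the hypothalamus was 2.09-fold lower (difference -1.06 ± 0.20 SE, adjusted p = 9.44e-04). Slc30a3 was also lower in hypothalamus in each of the other conditions, by -0.75 (ACTH), -1.02 (ACTH gratified), -1.13 (furosemide) and -1.07 (furosemide gratified), with adjusted p between 4.45e-04 and 0.0336. Solute carriers called in those 4 conditions numbered 4, 3, 3 and 3, beside 1.22%, 0.555%, 2.47% and 1.63% of all features. The Slc30a3 call under ACTH was lost in 6 of 15 alternatives, among them array medians set to 0 and the omission of ACTH replicate 2 or 4 of the rest of the brain or ACTH replicate 2, 3 or 4 of the hypothalamus. Under ACTH gratified, Slc30a3 read 1.25 on the hypothalamus array labelled replicate 6, and without that array the difference was -1.17 (adjusted p = 9.04e-06). Without it 6 solute carriers were called, beside 1.59% of all features. Slc17a6 read 2.11, 2.23, 2.14 and 1.79 in hypothalamus controls and 1.82, 0.69, 1.14 and 1.01 in controls of the rest of the brain. One array of the rest of the brain lay inside the hypothalamus range, and the difference was 0.90 ± 0.22 SE (1.87-fold, adjusted p = 0.0148). This call was lost in 4 of 14 alternatives, among them the omission of control replicate 2 or 4 of the rest of the brain or hypothalamus control replicate 2.

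The other control differences lay in carriers of anions and lipids. Slc26a11, an anion carrier of the sulfate transporter family, read 0.24, 0.33, 0.32 and -0.01 in hypothalamus and -0.30, -0.26, -0.25 and -0.18 in the rest of the brain, without overlap (0.47 ± 0.10 SE, adjusted p = 0.00342). Slc27a2, a fatty acid transport protein that activates very long chain fatty acids, read 0.53, 0.75, 1.03 and 1.02 against 0.29, 0.48, 0.20 and 0.62, and these ranges overlapped (0.43 ± 0.10 SE, adjusted p = 0.0107). Slc23a3, an orphan of the ascorbate carrier family, was lower by -0.31 ± 0.08 SE (adjusted p = 0.0271). The calls of Slc27a2 and Slc23a3 were lost in 4 and 6 of 14 alternatives, both without control replicate 3 of the rest of the brain and without hypothalamus control replicate 3 or 4, and that of Slc23a3 also without control replicate 4 of the rest of the brain. The control calls of Slc26a11 and Slc30a3 were lost in 1 of 14, with the number series as a factor. All hypothalamus controls are in one number series and all controls of the rest of the brain in another, so for these 5 differences tissue and series cannot be told apart. The ACTH and ACTH gratified arrays of both tissues share a series, which gives the comparison within one series below.

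The promoters of the 3 carriers of vesicles whose tissue difference was largest are shown for reading beside these values. Each window runs from 250 bases before to 50 bases after the first listed transcription start of the gene, from RefSeq on build GRCm38.p6, written 5′ to 3′ on the gene's strand. Slc30a3 lies at chr5:31108195-31108494 (minus strand), Slc17a6 at chr7:51621580-51621879 (plus strand) and Slc18a2, the vesicular monoamine carrier, at chr19:59260628-59260927 (plus strand). Capitals mark the motifs that were searched on both strands of each window. One was TATAAA, the box that places the start of transcription in many genes. Another was GGGCGG, the GC box bound by factors of the Sp family. The cyclic AMP response element, TGACGTCA, was the last one marked. The consensus of the glucocorticoid response element was searched too, with 0 matches in these windows.
Slc30a3: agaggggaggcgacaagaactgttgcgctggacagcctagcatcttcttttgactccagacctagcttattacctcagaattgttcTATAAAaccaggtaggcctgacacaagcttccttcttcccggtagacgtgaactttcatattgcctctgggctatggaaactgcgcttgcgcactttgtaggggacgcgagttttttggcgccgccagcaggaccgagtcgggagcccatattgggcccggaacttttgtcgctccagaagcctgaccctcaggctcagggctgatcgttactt
Slc17a6: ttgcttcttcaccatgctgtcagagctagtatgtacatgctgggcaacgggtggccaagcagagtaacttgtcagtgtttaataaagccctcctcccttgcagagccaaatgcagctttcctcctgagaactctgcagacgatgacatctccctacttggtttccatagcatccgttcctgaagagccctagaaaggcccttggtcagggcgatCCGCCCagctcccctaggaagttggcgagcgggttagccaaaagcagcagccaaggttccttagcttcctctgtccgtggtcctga
Slc18a2: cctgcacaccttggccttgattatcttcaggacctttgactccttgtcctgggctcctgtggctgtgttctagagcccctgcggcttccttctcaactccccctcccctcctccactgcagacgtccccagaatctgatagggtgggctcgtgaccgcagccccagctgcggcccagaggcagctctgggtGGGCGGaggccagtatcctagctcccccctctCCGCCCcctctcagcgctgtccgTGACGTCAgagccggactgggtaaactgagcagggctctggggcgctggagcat
Over 32851 promoter windows of the same table, the TATA box was in 13.6%, the GC box in 35.7% and the cyclic AMP response element in 1.79%. The Slc30a3 window held 1 match of TATAAA, that of Slc17a6 1 GC box, and that of Slc18a2 1 cyclic AMP response element and 2 GC boxes. The search took no account of where in the window a match lay. A match of letters is no evidence that a factor binds there or that it places the start.

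Averaged over the 5 conditions, 32 of 213 features differed between the tissues, beside 14.8% of all features, with 17 higher and 15 lower in hypothalamus (8.26% and 6.55% of all features). Without the array labelled hypothalamus ACTH gratified replicate 6 the counts were 17 and 16, beside 15.5% of all features. The differences of Slc17a6, Slc32a1, Slc6a11, Slc26a10 and Slc39a10, given below with that array, were 0.75, 0.26, 0.46, -0.46 and -0.45 without it. The sodium-coupled families gave 4 of 56 and the other families 28 of 157. This grouping goes by family number and does not separate carriers by sodium coupling. The other families hold sodium carriers such as Slc24a2 and Slc4a10. The sodium-coupled families hold potassium-chloride cotransporters such as Slc12a5, and the SLC9A3R scaffold features. The median difference over the 213 features was -0.0022 and over all features 0.0029. By sign alone, 24 features were above and 18 below the rest of the brain in all 5 conditions (19.7% together), and over all features that share was 20.1%. The plots of values by array show 6 of these carriers.

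**Figure D1:**
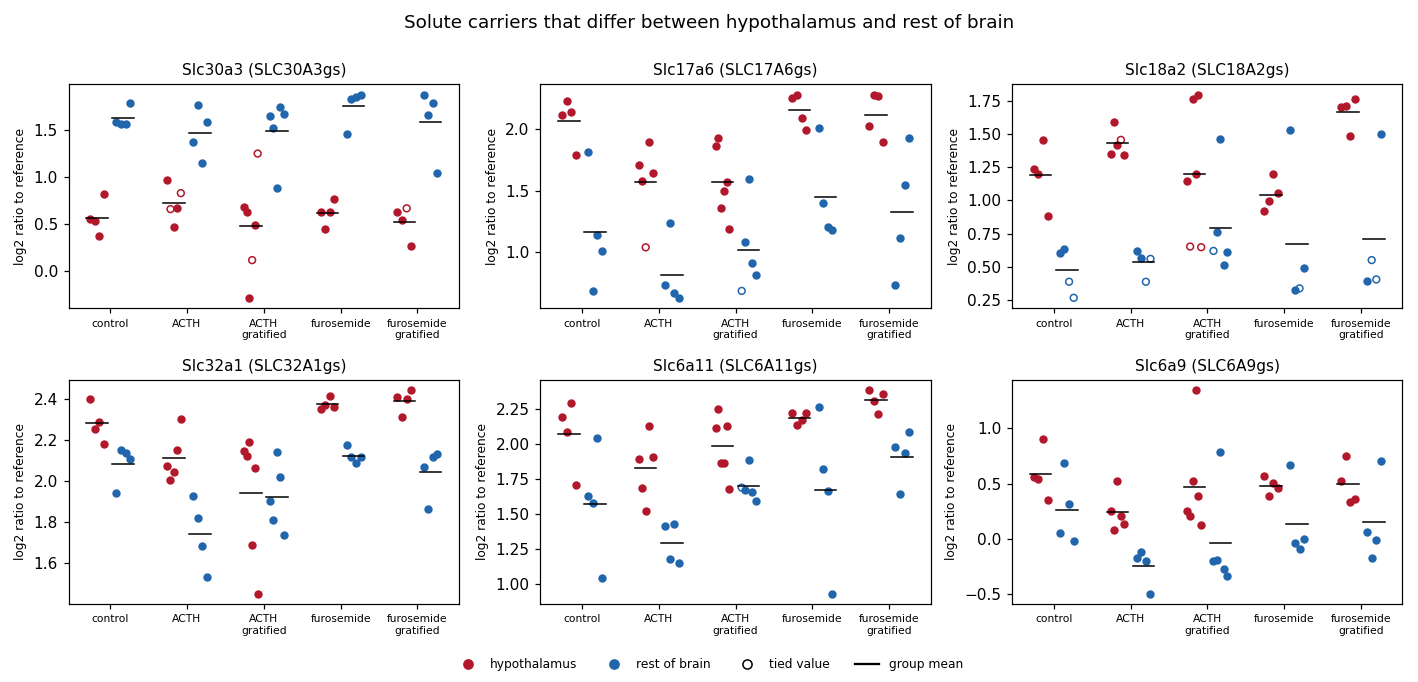
Log2 ratio of tissue over reference RNA (vertical axis) on each of the 44 arrays, by condition, for 6 solute carriers; red points are hypothalamus, blue points the rest of the brain, hollow points tied values and black bars group means. Slc30a3 is lower in hypothalamus in each condition, and for Slc18a2 3 arrays of the rest of the brain (1.46, 1.53 and 1.50) stand above the others of that tissue.

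Vesicular transmitter carriers made up 3 of those 17 higher features, from 6 measured. Slc17a6 had a lowest, median and highest value of 1.04, 1.89 and 2.28 over the 23 hypothalamus arrays and of 0.63, 1.11 and 2.00 over the 21 arrays of the rest of the brain. The tissues overlapped, and the mean of the 5 condition differences was 0.74 ± 0.10 SE (adjusted p = 2.05e-07). Slc18a2 ran from 0.65 to 1.80 around a median of 1.35 in hypothalamus and from 0.26 to 1.53 around 0.56 in the rest of the brain. Its difference was 0.67 ± 0.10 SE (adjusted p = 3.36e-06). In the rest of the brain ACTH gratified replicate 3 (1.46), furosemide replicate 1 (1.53) and furosemide gratified replicate 4 (1.50) stood apart, with the other arrays at 0.76 or below; leaving out each in turn gave 0.71, 0.73 and 0.72. The cortex marker level of these 3 arrays (0.48, 1.16 and 0.72) was the lowest of its group in each case, and its part in the Slc18a2 values was not tested. Slc32a1, which loads GABA and glycine into vesicles, was higher by 0.24 ± 0.05 SE (adjusted p = 3.20e-04), from 1.45 to 2.44 in hypothalamus and from 1.53 to 2.17 in the rest of the brain.

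Among the 20 sodium-coupled transmitter and amino acid carriers of the plasma membrane, 2 were higher and 1 lower in hypothalamus. Slc6a11, the GABA uptake carrier GAT3, ran from 1.52 to 2.38 (median 2.13) in hypothalamus and from 0.93 to 2.27 (median 1.66) in the rest of the brain. Slc6a9, the glycine uptake carrier GLYT1, ran from 0.08 to 1.34 (median 0.39) and from -0.50 to 0.79 (median -0.04). Both pairs of ranges overlapped, and the differences were 0.45 ± 0.08 SE for Slc6a11 (adjusted p = 3.26e-05) and 0.41 ± 0.09 SE for Slc6a9 (adjusted p = 0.00168). Slc38a3, the glutamine carrier of astrocytes, was lower by -0.15 ± 0.04 SE (adjusted p = 0.0142). The glutamate carriers Slc1a1 and Slc1a3 did not pass the test.

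Of 39 ion and bicarbonate features, 1 was higher and 4 were lower in hypothalamus. The sodium-calcium exchanger Slc8a2 was lower by -0.22 ± 0.06 SE (adjusted p = 0.00637), the potassium-dependent sodium-calcium exchanger Slc24a2 by -0.20 ± 0.06 SE (adjusted p = 0.0277) and the sodium-bicarbonate carrier Slc4a10 by -0.22 ± 0.06 SE (adjusted p = 0.0166). Slc26a10 ran from -0.81 to -0.15 (median -0.58) in hypothalamus and from -0.73 to 0.21 (median -0.06) in the rest of the brain, a difference of -0.45 ± 0.06 SE (adjusted p = 7.33e-07). All 4 lower features are named here, and Slc26a11 was the higher one (0.32 ± 0.04 SE). Of these 5, Slc26a10 was the one that passed within the ACTH and ACTH gratified arrays alone.

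Metal and amino acid carriers were split in direction. Called higher were the metal carriers Slc30a9 and Slc39a8 and the amino acid carrier Slc7a3, named here without a size. Slc39a10, a zinc importer, ran from -0.93 to 0.03 (median -0.32) in hypothalamus and from -0.46 to 0.45 (median 0.28) in the rest of the brain, and was lower by -0.44 ± 0.07 SE (adjusted p = 4.02e-06). The highest hypothalamus value of Slc39a10, as of Slc26a10, came from the array labelled ACTH gratified replicate 6. Slc7a8, an exchanger of large neutral amino acids, was lower by -0.29 ± 0.06 SE (adjusted p = 6.43e-04), and Slc36a1, the proton-coupled amino acid carrier of lysosomes, by -0.25 ± 0.05 SE (adjusted p = 8.54e-04). The adenosine carrier Slc29a1, read by feature SLC29A1g-s2, ran from -1.16 to -0.54 (median -0.88) and from -1.42 to -0.71 (median -1.16), and was higher by 0.30 ± 0.04 SE (adjusted p = 1.13e-07). The other feature of this gene, SLC29A1g-s1, had a difference of 0.0345 and did not pass. Of 27 mitochondrial carrier features, 4 were higher and 1, with tied values, was lower; the citrate carrier Slc25a1 was higher by 0.23 ± 0.05 SE (adjusted p = 6.43e-04).

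Within the 20 ACTH and ACTH gratified arrays alone, which share a number series, 8 of the 32 features passed and 30 of the 32 kept their sign, Slc22a2 and Slc2a6 being the exceptions (an alternative chosen after seeing the data). These arrays also entered the mean that called the 32, so the kept signs are not independent support. The 8 were Slc17a6 (0.65), Slc18a2 (0.66), Slc6a11 (0.41), Slc29a1 by SLC29A1g-s2 (0.32) and Slc25a39, a mitochondrial carrier (0.18), higher in hypothalamus, and Slc30a3 (-0.88), Slc39a10 (-0.53) and Slc26a10 (-0.41), lower. With the number series as a factor in the fit of all arrays, 15 solute carrier features passed for the mean over conditions and 0 for the controls. The share of all features that passed in these fits is not given here. Fewer arrays entered the first of these fits. Without the array labelled hypothalamus ACTH gratified replicate 6 that fit called 10 features, the 8 above (Slc30a3 at -0.96 and Slc17a6 at 0.69) and the glucose carrier Slc2a4 (0.21) and the tied zinc carrier Slc39a8.

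With ACTH, carriers of taurine, glutamine, ascorbate and mitochondrial glutamate fell, and the untied rises were fewer. In hypothalamus 16 of 213 features changed, 9 up and 7 down, beside 10.5% of all features (4.49% up and 6.03% down). In the rest of the brain 41 of 213 changed (19.2%), 18 up and 23 down, beside 30.0% of all features (9.29% up and 20.7% down). Tied values lay behind 4 of the rises in hypothalamus, 10 of those in the other tissue and 0 of the falls. Counted over untied features alone, 12 of 163 (7.36%) changed in hypothalamus beside 10.1% of all untied features, and 31 of 168 (18.5%) in the rest of the brain beside 30.8%. With ACTH gratified these shares were 7.83% beside 13.4% and 18.0% beside 31.7%. The median difference of the 213 features was 0.0294 in the first tissue and -0.0181 in the second, and over all features -0.0184 and -0.0408.

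Slc6a6, the sodium- and chloride-coupled taurine carrier, fell in both tissues. It read -0.41, -0.33, -0.24 and -0.25 on hypothalamus control arrays and -0.71, -0.68, -0.84, -0.72 and -0.62 on ACTH arrays. On the other tissue's arrays it read -0.39, -0.18, -0.07 and 0.0014 on control arrays and -0.62, -0.77, -0.78 and -0.68 on ACTH arrays. Controls and ACTH arrays did not overlap in either tissue. The fall was -0.41 ± 0.08 SE in hypothalamus (1.33-fold, adjusted p = 0.00376) and -0.55 ± 0.11 SE in the rest of the brain (1.46-fold, adjusted p = 0.00117). With ACTH gratified Slc6a6 was also below control, by -0.49 ± 0.08 SE (adjusted p = 3.56e-04) and -0.70 ± 0.10 SE (adjusted p = 1.01e-04). These 4 calls held under every alternative that gave a value, including the loss of any one array. On the furosemide gratified arrays of the rest of the brain it read -0.27, -0.71, -0.53 and -0.65, a difference from control of -0.38 ± 0.11 SE that did not pass (adjusted p = 0.0894). Of these arrays, replicate 1 shares the number series of the controls, and replicates 2, 3 and 4 lie in another.

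Slc38a1 and Slc38a3, glutamine carriers of family SLC38, each passed with ACTH in a single tissue. Slc38a1, which supplies glutamine to neurons, read -0.01, 0.08, 0.05 and -0.05 in hypothalamus controls and -0.22, -0.55, -0.88, -0.51 and -0.44 with ACTH. The arrays did not overlap, and the fall was -0.54 ± 0.12 SE (1.45-fold, adjusted p = 0.00684). On the 6 ACTH gratified arrays it ran from -0.95 to -0.38, a fall of -0.68 ± 0.12 SE (adjusted p = 5.62e-04). In the rest of the brain the ACTH difference of Slc38a1 was -0.40 ± 0.16 SE (adjusted p = 0.0687), and with gratification -0.48 ± 0.16 SE (adjusted p = 0.0231). Slc38a3 fell in the rest of the brain with ACTH by -0.44 ± 0.10 SE (adjusted p = 0.00262), a call that quantile normalization removed (adjusted p = 0.241).

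**Figure D2:**
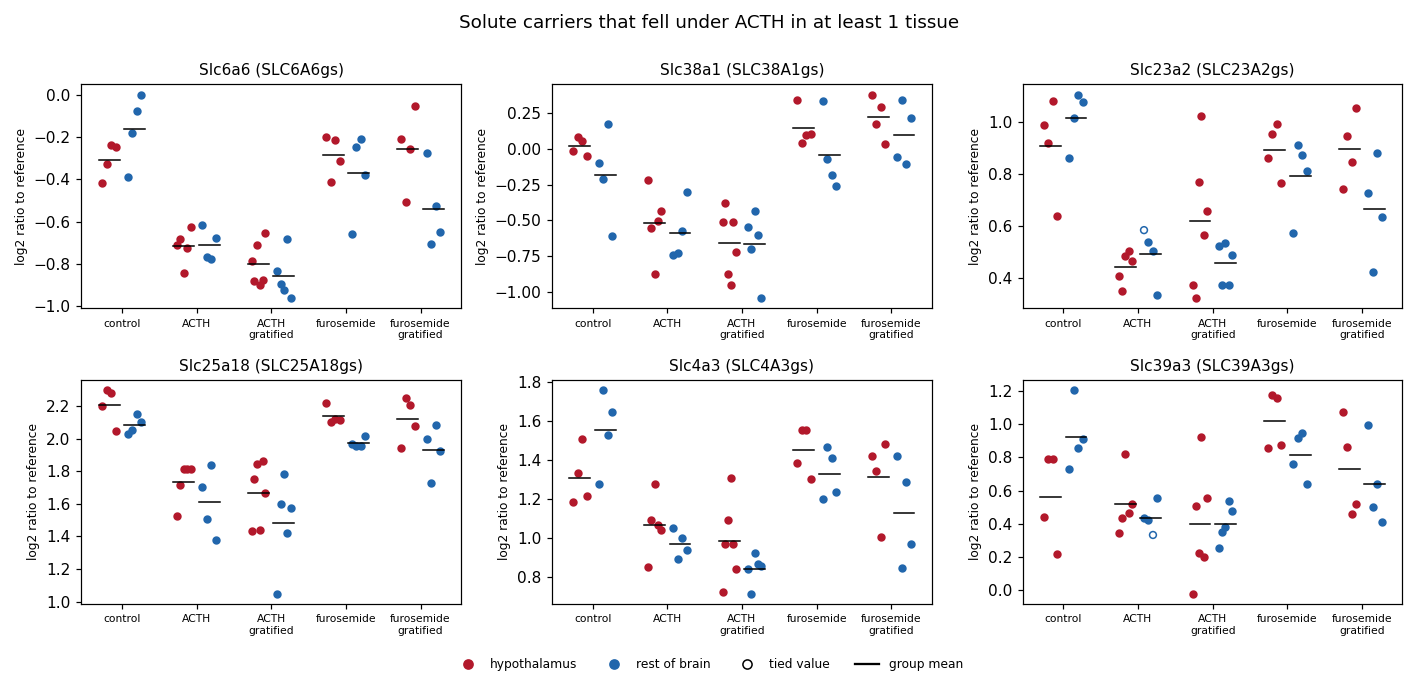
Log2 ratio of tissue over reference RNA (vertical axis) on each array by condition for Slc6a6, Slc38a1, Slc23a2, Slc25a18, Slc4a3 and Slc39a3; red points are hypothalamus, blue points the rest of the brain, hollow points tied values and black bars group means. The ACTH and ACTH gratified arrays of Slc6a6 lie at or below -0.62 in both tissues, below every control array.

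Slc23a2, the sodium-dependent ascorbate carrier of neurons (its family is outside the sodium-coupled list used here), read 0.99, 0.92, 1.08 and 0.64 in hypothalamus controls and 0.41, 0.35, 0.48, 0.50 and 0.47 with ACTH. Outside the hypothalamus it read 0.86, 1.02, 1.10 and 1.08 in controls and 0.58, 0.54, 0.50 and 0.33 with ACTH. Neither tissue showed overlap, and the falls were -0.46 ± 0.11 SE (1.38-fold, adjusted p = 0.0126) and -0.52 ± 0.09 SE (1.44-fold, adjusted p = 6.78e-04). Without control replicate 3 the hypothalamus call was lost (adjusted p = 0.0562). With ACTH gratified, Slc23a2 was lower in the rest of the brain (-0.56 ± 0.09 SE, adjusted p = 2.02e-04), and in hypothalamus the difference was -0.29 ± 0.11 SE (adjusted p = 0.0842).

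Mitochondrial carriers (family SLC25) fell in 2 of 27 features in hypothalamus and 6 of 27 in the rest of the brain, with 0 and 1 higher. Over all features 6.03% and 20.7% fell, so these shares are near the background. Slc25a18, a mitochondrial glutamate carrier, read 2.20, 2.30, 2.28 and 2.05 in hypothalamus controls and 1.52, 1.72, 1.81, 1.82 and 1.81 with ACTH. Outside the hypothalamus it read 2.03, 2.05, 2.15 and 2.10 in controls and 1.70, 1.51, 1.84 and 1.38 with ACTH. The arrays of control and ACTH did not overlap in either tissue, and the falls were -0.47 ± 0.10 SE (adjusted p = 0.00396) and -0.48 ± 0.12 SE (adjusted p = 0.00668). The second was lost under quantile normalization (adjusted p = 0.159). The related glutamate carrier Slc25a22 fell by -0.32 ± 0.10 SE in hypothalamus (adjusted p = 0.0382) and by -0.42 ± 0.14 SE in the rest of the brain (adjusted p = 0.0298); under quantile normalization the hypothalamus value lost its call (adjusted p = 0.529). Outside the hypothalamus the ADP-ATP exchanger Slc25a4 (-0.35 ± 0.10 SE), the iron carrier Slc25a28 (-0.42 ± 0.11 SE) and Slc25a39 (-0.28 ± 0.07 SE) fell as well. Slc25a24, the ATP-magnesium and phosphate carrier, was called higher there (0.80 ± 0.24 SE), but its ACTH arrays read -1.07, -1.67, 0.29 and -0.67 against -1.60, -1.55, -1.63 and -1.53, and overlapped. With array weights that call was lost (adjusted p = 0.0568).

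The promoters of Slc23a2, at chr2:132145271-132145570 on the minus strand, and Slc25a18, at chr6:120773518-120773817 on the plus strand, are shown because both genes fell with ACTH in both tissues. They are taken from RefSeq on GRCm38.p6 in the same way, and capitals mark TATAAA on either strand.
Slc23a2: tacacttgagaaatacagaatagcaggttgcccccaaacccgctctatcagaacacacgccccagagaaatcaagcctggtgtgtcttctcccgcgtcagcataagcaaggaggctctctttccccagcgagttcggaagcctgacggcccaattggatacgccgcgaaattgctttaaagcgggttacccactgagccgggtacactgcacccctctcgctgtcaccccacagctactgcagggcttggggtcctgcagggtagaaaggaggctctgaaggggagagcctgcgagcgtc
Slc25a18: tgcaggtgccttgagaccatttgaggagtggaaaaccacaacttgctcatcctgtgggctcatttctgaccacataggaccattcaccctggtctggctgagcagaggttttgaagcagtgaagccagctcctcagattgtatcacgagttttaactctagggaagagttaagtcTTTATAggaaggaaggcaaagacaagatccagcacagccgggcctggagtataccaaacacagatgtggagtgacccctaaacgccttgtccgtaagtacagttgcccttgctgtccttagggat
The Slc25a18 window held 1 match of TATAAA in reverse, at a place that was not weighed, and that of Slc23a2 held none of the motifs searched. Of 202 promoter windows of solute carriers, 1, of Slc10a6, held the consensus of the glucocorticoid response element (0.495%, beside 0.475% of all windows). Slc10a6 was called higher in the rest of the brain with ACTH on tied values, and that call was lost in 12 of 12 alternatives.

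Ion and bicarbonate carriers moved in both directions in the rest of the brain, with 4 of 39 up (2 on tied values) and 3 down, beside 9.29% and 20.7% of all features. Slc4a3, a chloride-bicarbonate exchanger of excitable cells, read 1.27, 1.76, 1.53 and 1.65 in controls and 1.05, 0.89, 1.00 and 0.94 with ACTH. The arrays did not overlap, and the fall was -0.58 ± 0.11 SE (1.50-fold, adjusted p = 0.00107), lost under quantile normalization (adjusted p = 0.0772). The chloride carriers Slc12a5 (both features) and Slc12a2 by features g-s1, g-s2 and g-s3 did not pass; SLC12A2g-s4 was called higher on tied values.

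In hypothalamus 1 of the 39 ion and bicarbonate features changed, upward. Slc12a9, an orphan of the cation-chloride cotransporter family, read -0.22, -0.18, -0.05 and 0.08 in controls and 0.27, 0.32, 0.12, 0.40 and 0.31 with ACTH. The arrays did not overlap, and the rise was 0.37 ± 0.08 SE (1.30-fold, adjusted p = 0.00698). The zinc carrier Slc30a4 read -1.17, -1.12, -0.97 and -1.15 in hypothalamus controls and -0.73, -0.72, -0.64, -0.94 and -0.29 with ACTH, a rise of 0.44 ± 0.12 SE (adjusted p = 0.0210) without overlap that was lost without any of 3 arrays (control replicate 1, control replicate 2 or ACTH replicate 5; highest adjusted p = 0.0663). The iron carrier Slc11a2 by feature SLC11A2g-s1 (0.31 ± 0.09 SE, adjusted p = 0.0382) and the glucose carrier Slc2a8 (0.24 ± 0.07 SE, adjusted p = 0.0389) rose too, and lost their calls in 11 and 8 of 14 alternatives. The other feature of Slc11a2 had a difference of 0.0443.

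Among zinc, sugar and transmitter carriers of the rest of the brain, the zinc importer Slc39a3 read 0.73, 1.20, 0.86 and 0.91 in controls and 0.44, 0.42, 0.33 and 0.56 with ACTH. The arrays did not overlap (-0.49 ± 0.12 SE, adjusted p = 0.00432). SLC2A14, a glucose carrier feature matched to no mouse gene here, fell by -0.70 ± 0.11 SE (1.62-fold, adjusted p = 2.67e-04) and in hypothalamus by -0.52 ± 0.13 SE (adjusted p = 0.0149). The fructose carrier Slc2a5, known in brain from microglia, fell by -0.41 ± 0.07 SE (adjusted p = 7.15e-04). The vesicular carriers differed by tissue in what passed: Slc32a1 fell in the rest of the brain by -0.34 ± 0.09 SE (adjusted p = 0.0101, and 0.442 under quantile normalization), and Slc17a6 in hypothalamus by -0.49 ± 0.15 SE (adjusted p = 0.0427, lost in 9 of 14 alternatives). A difference of the ACTH change between the tissues was called for 0 of 213 features (beside 0.0% of all features), and 15 of them had an unadjusted p under 0.05.

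The untied rises of the rest of the brain lay in several roles. Slc36a1 read -0.28, -0.20, -0.27 and -0.59 in controls and 0.26, -0.03, -0.14 and 0.01 with ACTH, without overlap (0.36 ± 0.12 SE, adjusted p = 0.0344). It rose in hypothalamus by the same size (0.36 ± 0.12 SE, adjusted p = 0.0494), a call lost in 13 of 14 alternatives. Slc12a1, the kidney's target of furosemide, read -1.11, -0.76, -1.0 and -1.02 in controls and -0.61, 0.34, -0.47 and -0.63 with ACTH. The highest ACTH array was a tied value, and without it the rise of 0.63 ± 0.19 SE became 0.41 (adjusted p = 0.0567). The zinc and iron carrier Slc39a14 (0.49 ± 0.15 SE), the nucleoside carrier Slc28a2 (0.41 ± 0.11 SE), the lysosomal peptide and histidine carrier Slc15a4 (0.26 ± 0.07 SE), Slc35e3 (0.54 ± 0.15 SE) and Slc24a5 (0.54 ± 0.17 SE) also rose. Of these 5, Slc39a14 and Slc24a5 lost their calls without 1 array (Slc39a14 without control replicate 3 or ACTH replicate 3, Slc24a5 without ACTH replicate 4). Tied rises included the nucleotide sugar carrier Slc35a3 and the zinc carrier Slc30a8.

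**Figure D3:**
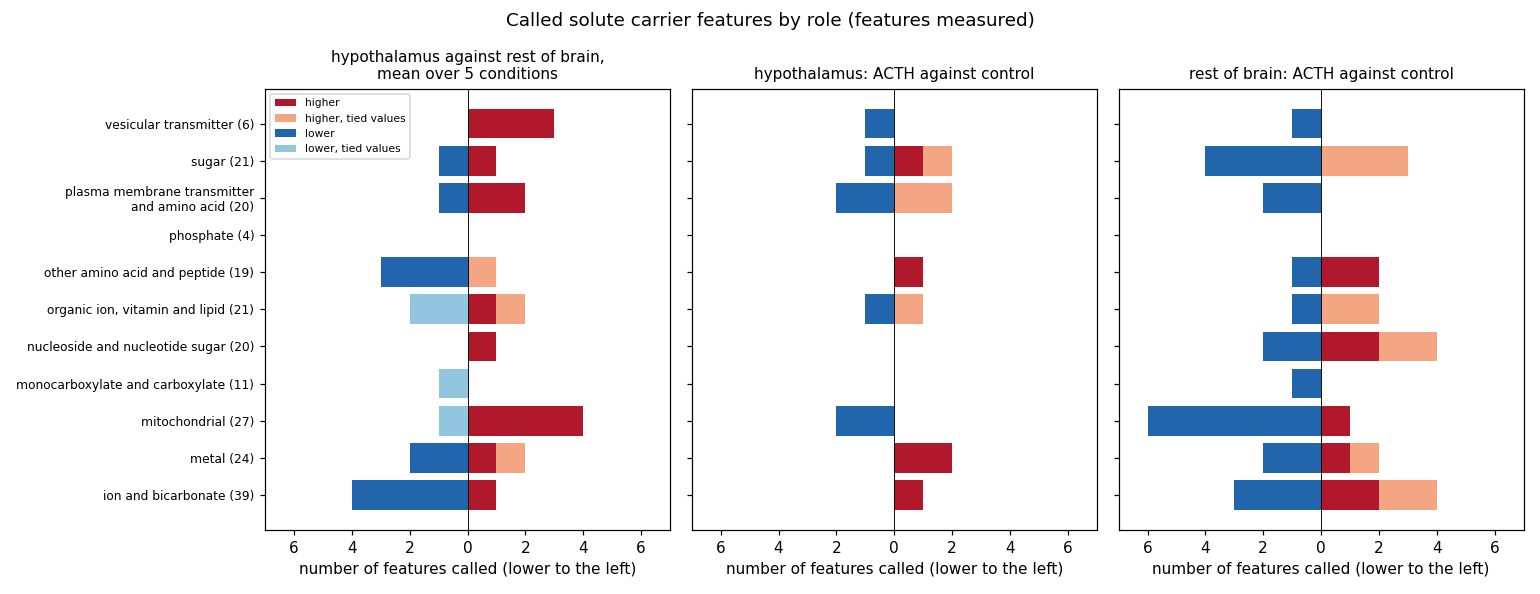
Number of solute carrier features called higher (right) and lower (left) by role, with the number measured in brackets, for the tissue difference and for ACTH against control in each tissue; pale bars are calls on tied values, and 1 feature of no listed role is left out. Mitochondrial carriers have 6 falls of 27 in the rest of the brain, a share near the 20.7% of all features that fell there, and each of the 3 vesicular calls of the tissue difference is higher in hypothalamus.

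Of 7 ACTH falls in hypothalamus, 5 were also falls in the rest of the brain (71.4% of the 7 and 21.7% of the 23 there): Slc6a6, Slc23a2, Slc25a18, Slc25a22 and SLC2A14. Over all features 69.4% of the hypothalamus falls and 20.2% of the falls in the rest of the brain were shared. Of 9 rises, 2 were shared (22.2% of the 9 and 11.1% of the 18, beside 49.9% and 24.1% over all features), Slc36a1 and Slc45a2, a carrier of pigment cells that was tied. No feature was called in opposite directions. The tissues may come from the same animals, and both ACTH groups lie in the same number series.

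**Figure D4:**
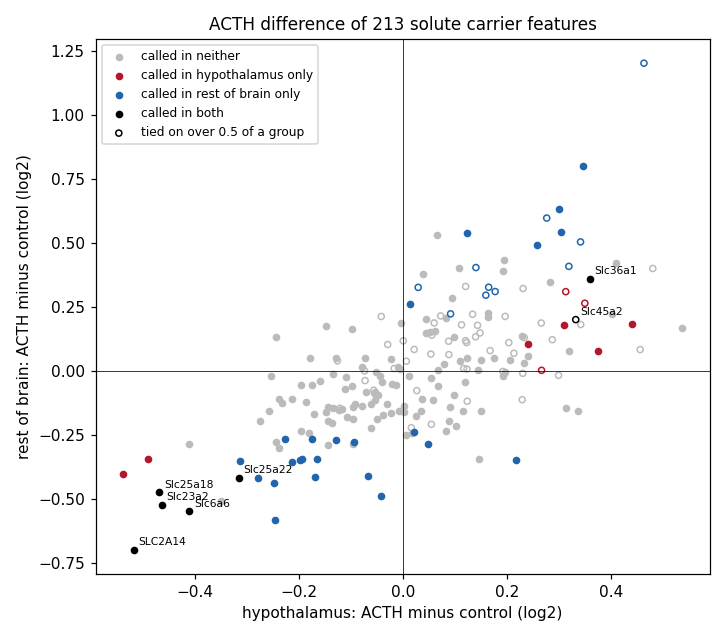
Difference of ACTH minus control in log2 units for the 213 solute carrier features, with hypothalamus on the horizontal axis and the rest of the brain on the vertical axis; colours give the tissue in which a feature was called, and hollow points are features tied on over 0.5 of a group's arrays in either tissue. The 5 falls called in both tissues lie together at the lower left, from -0.32 to -0.52 in hypothalamus and from -0.42 to -0.70 in the rest of the brain.

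With ACTH gratified, 14 of 213 features differed from control in hypothalamus, 4 up (1 tied) and 10 down, beside 12.6% of all features (4.67% up and 7.97% down). Without the array labelled replicate 4 of that group the count was 35, 16 up and 19 down, beside 25.6% of all features. Without replicate 6, whose tissue markers go against its label, it was 13, 5 up and 8 down, beside 10.2% of all features; Slc17a6 and Slc32a1 lost their calls and Slc12a1 gained one. In the rest of the brain 41 differed, 17 up (11 tied) and 24 down, beside 32.7% of all features (11.5% up and 21.2% down). Slc6a6, Slc25a18, Slc25a22, Slc25a11, Slc38a1, Slc38a3 and SLC2A14 fell in both tissues (7 of 10 and 7 of 24, beside 66.9% and 25.1% over all features), and 0 rises were shared. The 7 kept their hypothalamus call without replicate 6, SLC2A14 narrowly (adjusted p = 0.04998). The ACTH and ACTH gratified comparisons share their controls, so their values are not independent. Slc4a3 fell in the rest of the brain by -0.71 ± 0.11 SE (adjusted p = 1.22e-04), with ACTH gratified arrays at 0.84, 0.71, 0.92, 0.86 and 0.86.

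Carriers that passed with ACTH gratified and had not passed with ACTH included, in the rest of the brain, the mitochondrial phosphate carrier Slc25a3 (-0.41 ± 0.14 SE), the 2-oxoglutarate carrier Slc25a11 (-0.48 ± 0.13 SE), the synaptic vesicle amino acid carrier Slc6a17 (-0.32 ± 0.09 SE) and the blood-brain barrier glucose carrier Slc2a1 (-0.25 ± 0.08 SE). Slc2a1 lost its call in 8 of 14 alternatives. For Slc20a1, a sodium-phosphate cotransporter, the features disagreed. SLC20A1g-s1 read -0.18, 0.00, 0.25 and 0.36 in controls and -0.49, -0.44, -0.23, -0.26 and -0.35 with ACTH gratified, a fall of -0.46 ± 0.15 SE (adjusted p = 0.0249). SLC20A1g-s2 read 0.06, -0.30, -0.49 and -0.31 in controls and 0.28, 0.06, 0.27, 0.16 and 0.12, a rise of 0.44 ± 0.15 SE (adjusted p = 0.0279). No direction can be given for the gene. Over the 15 base names with several features, the signs disagreed for 6 with ACTH in the rest of the brain and for 4 in hypothalamus. For the tissue difference averaged over conditions they disagreed for 8.

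Gratification itself, ACTH gratified against ACTH, called 0 of 213 features in either tissue, beside 0.0105% of all features (hypothalamus) and 0.0628% (rest of the brain). At an unadjusted p under 0.05 there were 17 and 15 features. The smallest p in hypothalamus were those of Slc46a2 (tied), Slc7a1 (-0.60 ± 0.22 SE, adjusted p = 0.521) and Slc2a8 (-0.17 ± 0.07 SE, adjusted p = 0.545). In the rest of the brain they were those of Slc15a4 (-0.23 ± 0.07 SE, adjusted p = 0.363), Slc7a2 by SLC7A2g-s2 (tied) and Slc25a24 (-0.73 ± 0.23 SE, adjusted p = 0.378).

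Furosemide, whose kidney target is the product of Slc12a1, called 0 of 213 features in hypothalamus (beside 0.0209% of all features) and 0 in the rest of the brain (beside 0.0942%), with 12 and 10 at an unadjusted p under 0.05. In hypothalamus the zinc importer Slc39a3 read 0.44, 0.79, 0.79 and 0.22 in controls and 0.86, 1.18, 1.16 and 0.87 with furosemide. These arrays did not overlap, and the difference of 0.46 ± 0.17 SE did not pass (adjusted p = 0.663). The organic anion carrier Slc22a8, known from choroid plexus and the blood-brain barrier (0.38 ± 0.14 SE, adjusted p = 0.630), the carnitine carrier Slc22a5 by SLC22A5g-s1 (0.35 ± 0.12 SE, adjusted p = 0.630) and the carnitine-acylcarnitine carrier Slc25a20 (0.31 ± 0.12 SE, adjusted p = 0.656) had the smallest p. Outside the hypothalamus Slc12a5, the potassium-chloride cotransporter of neurons, read 1.03, 0.82, 1.24 and 0.49 in controls and 1.62, 1.41, 1.24 and 1.38 with furosemide by feature SLC12A5g-s1. The difference was 0.52 ± 0.14 SE (adjusted p = 0.204), and the potassium-dependent sodium-calcium exchanger Slc24a3 had 0.35 ± 0.13 SE (adjusted p = 0.284).

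With furosemide gratified, 0 of 213 features passed against control in either tissue (beside 0.0% of all features in each), with 9 and 30 at an unadjusted p under 0.05. The share of all features at that unadjusted threshold is not given, so the 30 are not shown to be particular to solute carriers. In the rest of the brain, gratified replicates 2, 3 and 4 lie outside the number series of the control and furosemide arrays. In hypothalamus, gratified replicates 1 and 2 do. With the number series as a factor, 0 solute carrier features passed in either tissue. Leaving out control replicate 1 of the rest of the brain gave 6 called features there, and leaving out gratified replicate 1 or 3 gave 2 and 1. The share of all features called in these fits is not given. Slc4a3 (-0.42 ± 0.11 SE, adjusted p = 0.0810), Slc23a2 (-0.35 ± 0.09 SE, adjusted p = 0.0813) and Slc6a6 had the smallest p there beside SLC12A2g-s4, which was tied. Slc4a3 read 1.42, 0.85, 1.28 and 0.97 on these arrays and Slc23a2 0.73, 0.42, 0.88 and 0.63; both overlapped the controls. In hypothalamus the carnitine carrier feature SLC22A5g-s2 (Slc22a5) read -0.45, -0.47, -0.76 and -0.51 on furosemide gratified arrays, below all 4 control arrays (highest -0.00 and lowest -0.25) and all 4 furosemide arrays (-0.17, -0.04, -0.17 and -0.31). Its difference from control was -0.40 ± 0.09 SE (adjusted p = 0.605) and from furosemide -0.37 ± 0.09 SE (adjusted p = 0.333). By this feature the furosemide arrays overlapped the controls.

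Furosemide gratified against furosemide called 0 features in hypothalamus (beside 0.0105% of all features) and 0 in the rest of the brain (beside 0.0%), with 4 and 3 at an unadjusted p under 0.05. The monoamine carrier Slc18a2 read 0.92, 0.99, 1.20 and 1.06 on furosemide arrays of the hypothalamus and 1.71, 1.72, 1.49 and 1.77 on furosemide gratified arrays. The arrays did not overlap, and the difference was 0.63 ± 0.19 SE (adjusted p = 0.974). A difference between the tissues in the furosemide change was called for 0 features, beside 0.0628% of all features, with 12 at an unadjusted p under 0.05.

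Partner genes of the carriers are given beside the 6.03% (hypothalamus) and 20.7% (rest of the brain) of all features that fell with ACTH, and the 4.49% and 9.29% that rose. Of 6 sodium pump features measured, 3 fell and 0 rose in each tissue, among them the beta subunit Atp1b3 by -0.51 ± 0.08 SE (hypothalamus) and -0.76 ± 0.10 SE (rest of the brain), and the regulator Fxyd7 by -0.39 ± 0.09 SE and -0.31 ± 0.11 SE. Of 14 features of the vesicular proton pump, which powers vesicle filling, 1 fell in hypothalamus, against 3 elsewhere in the brain. Of 16 features of chaperones and regulating kinases, 2 rose and 2 fell in hypothalamus and 3 rose and 4 fell in the rest of the brain; Nptn, a partner of monocarboxylate carriers, fell by -0.49 ± 0.12 SE and -0.61 ± 0.10 SE by NPTNg-s1, and the kinase Sgk3 rose by 0.47 ± 0.11 SE and 0.44 ± 0.10 SE. Of 13 carbonic anhydrase features, 1 rose and 1 fell in hypothalamus and 2 fell in the rest of the brain, Car2 by -0.59 ± 0.11 SE there.

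Other measures moved with ACTH beside these falls. Microglia markers fell in 3 of 4 features in hypothalamus and 4 of 4 in the rest of the brain, and their mean level ran from 0.54 to 0.93 on hypothalamus controls and 0.18 to 0.53 with ACTH, and from 0.58 to 1.02 and -0.05 to 0.32 in the rest of the brain. Oligodendrocyte markers fell in 3 of 9 and 2 of 9 features, beside 6.03% and 20.7% of all features, so the second share is near the background. Neuron and endothelium markers each fell in 0 of 9 features in hypothalamus and 2 of 9 in the rest of the brain. Meninges markers fell in 0 of 6 and 2 of 6, and 1 of 6 rose in the rest of the brain. Astrocyte markers fell in 1 of 5 features in each tissue, Glul, the glutamine synthetase (-1.88 ± 0.11 SE and -1.69 ± 0.25 SE, with tied values on 4 of the 44 arrays). The mean level of the 5 features ran from 1.57 to 1.61 on hypothalamus controls and 0.99 to 1.26 with ACTH. Outside the hypothalamus it ran from 1.06 to 1.71 and 0.75 to 1.30. That mean includes Glul. The median difference over the 5 features was -0.0367 (hypothalamus) and -0.074 (other tissue), so the mean level does not stand for the set. The SD over all features of an array was 0.669 to 0.766 on the 20 ACTH and ACTH gratified arrays and 0.727 to 0.779 on the others. The interquartile range went the other way, at 1.03 to 1.10 on those arrays, except 0.748 on hypothalamus ACTH gratified replicate 4, and 0.840 to 0.996 on the others. In the rest of the brain, 11 of the 18 solute carrier rises and 13 of the 23 falls brought the mean ratio closer to 0 than in controls. Slc6a6 and Slc25a28, below 0 in controls, fell further from 0 there. In hypothalamus, 6 of the 9 rises and 5 of the 7 falls brought the mean ratio closer to 0. The matching shares over all called features are not given. The part of markers, tied values and spread in the ACTH differences was not tested.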

How the data were processed

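Each sample was measured on a two-colour array, and the deposited table holds the authors' log2 ratios for 9554 features, tissue over reference; log base 2 was taken from limma, the tool named in the submitters' processing notes, whose version, background correction and normalization stay unstated here. Array medians ran from -0.24 to -0.05, so arrays were not centred on their median; other centring is unknown. The count of arrays per group limits precision, and no signal over background was used. Unmapped columns numbered 0.

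Groups came from the labels. The hypothalamus arrays and the arrays of the rest of the brain were each fitted with limma 3.58.1 (R 4.3.3; lmFit, eBayes, group means only), and tissue contrasts came from a fit of all 44. Tests were two-sided, adjusted over 9554 features, at 0.05. The fits were tested on simulated data. Features tied exactly with another on over 0.5 of a compared group's arrays carry no size. The text names, per comparison, up to 8 untied features per direction with the largest difference, the 3 smallest p where fewer than 3 passed, a fixed role list, and tied calls without size; other carriers were named after their values were seen. Members and lists were chosen with earlier results of these data known. Replicate numbers were not used to pair samples in the main fits. Over 81 same-number pairs within a tissue, all from different groups, deviations correlated from -0.28 to 0.27 (median 0.011). Over 102 same-number pairs between tissues, pooled over conditions, the median was 0.019. Whether the tissues came from the same animals was not tested. Alternatives were array medians set to 0, quantile normalization, array weights, number series as a factor, the replicate number as a block, tied features left out, and each array left out. Some genes that the rule names are not reported here. Promoters were matched by symbol for 148 of 192 symbols.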

Additional observations from a re-analysis of the deposited data

Results flagged for a closer look

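Of 76 groups of solute carrier values shown by array, 7 had 1 array far from the rest by Dixon's test; chance flags about 1 in 20 groups. Slc30a3 read 1.79 on control replicate 4 of the rest of the brain and 1.57 to 1.59 on the others, and without it the control tissue difference was -1.01 (adjusted p = 0.00586). Slc18a2 read 1.46 on ACTH gratified replicate 3 of the rest of the brain (others 0.52 to 0.76), 1.53 on furosemide replicate 1 (others 0.32 to 0.49) and 1.50 on furosemide gratified replicate 4 (others 0.39 to 0.55). Without the last of these, the Slc18a2 tissue difference under furosemide gratified went from 0.96 to 1.22 (adjusted p = 8.82e-04). Slc39a10 read -0.93 on hypothalamus ACTH replicate 3 (others -0.45 to -0.32), and without it the ACTH tissue difference went from -0.63 to -0.52 (adjusted p = 0.0736). Slc12a1 read 0.34, a tied value, on ACTH replicate 2 of the rest of the brain (others -0.63 to -0.47). Slc25a24 read -1.15 on ACTH gratified replicate 1 of the rest of the brain (others -1.65 to -1.58).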

How the results depend on the processing

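Leaving out each array in turn gave 6 to 18 called solute carrier features for ACTH in hypothalamus (lowest without control replicate 1 or 3), 8 to 35 for ACTH gratified there (highest without its replicate 4, and 13 without its replicate 6), 24 to 40 for ACTH in the rest of the brain (lowest without control replicate 3) and 30 to 46 for ACTH gratified there. It gave 29 to 33 for the tissue difference over conditions, and 3 to 6 (control), 1 to 5 (ACTH), 1 to 7 (ACTH gratified), 1 to 4 (furosemide) and 2 to 5 (furosemide gratified) within a condition. It gave 0 to 6 for furosemide gratified in the rest of the brain and 0 to 1 for ACTH gratified against ACTH there, and 0 for the other comparisons with no call. Beside the 35 and 13 for ACTH gratified in hypothalamus stood 25.6% and 10.2% of all features. Shares of all features are not given here for the other counts, so their moves need not be particular to solute carriers.

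Array weights gave 48 and 46 calls for ACTH and ACTH gratified in hypothalamus, 67 for ACTH gratified in the rest of the brain, and 15, 7, 5, 33 and 7 for the tissue difference (control first, then ACTH, ACTH gratified, furosemide, furosemide gratified). They gave 1 each for furosemide in the rest of the brain, furosemide gratified against furosemide in hypothalamus, and the difference of furosemide change between tissues. Shares of all features are not given for the counts of this paragraph. A moved count need not be particular to solute carriers. The number series as a factor gave 0 for the tissue difference in control and in furosemide and 15 for the mean over conditions, for which the high-number arrays alone gave 8, or 10 without hypothalamus ACTH gratified replicate 6; it could not be fitted for ACTH or ACTH gratified against control. With those arrays alone Slc22a2 and Slc2a6 turned from lower to 0.0032 and 0.0027 (without that replicate -0.0003 and 0.0016), and with quantile normalization Slc15a2 turned from lower to 0.0139 for ACTH in the rest of the brain. The replicate block gave 5 for the tissue difference under ACTH gratified and 7 for ACTH gratified in hypothalamus, and moved no other count by over 1.5 times. Splits into higher and lower moved by over 10 percentage points with scaling: with array medians set to 0, the tissue difference went from 3 and 2 to 4 and 1 in controls, from 2 and 2 to 2 and 1 with ACTH and from 1 and 2 to 0 and 2 with ACTH gratified, ACTH in hypothalamus from 9 and 7 to 5 and 6, ACTH gratified there from 4 and 10 to 3 and 14. With quantile normalization, the tissue difference with ACTH gratified became 1 and 1, ACTH gratified in hypothalamus became 5 and 6 and ACTH in the rest of the brain, 18 and 23 before, 19 and 16. The causes were not tested. No other called value changed sign.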

Other observations

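Among solute carrier features the spread within groups (pooled SD of log2 ratios) had a median of 0.163, beside 0.164 over all features. It was largest for Slc1a6, a glutamate carrier of Purkinje cells, at 0.418. Slc1a6 ran from -0.46 to 1.49 on the 21 arrays of the rest of the brain and from 0.04 to 0.82 on the 23 hypothalamus arrays.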
